A study of Mus musculus with 15 samples.

Results

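The proteasome genes of mouse knee joint synovium were described in collagen-induced arthritis (CIA), an inflammatory joint disease brought about in mice by immunization with type II collagen. The genes were found by name: every probe set that the array's annotation gives a single symbol made of Psm, a letter from a to g and a number was taken, and each gene was represented by its brightest probe set over all arrays. This gave 47 genes from 100 probe sets, of 18194 genes named on the array. A filter on low signal left 45 of the 47, of 14315 genes tested in all. Psma8, a 20S subunit of the testis, and Psmb11, a 20S subunit of the thymus, lay below it. Psme2, which encodes a subunit of the activator PA28, was measured only by a probe set that the annotation shares between Psme2 and Psme2b, so it has no value here and 4 of the 5 immunoproteasome genes (Psmb8, Psmb9, Psmb10 and Psme1) were compared with the 43 others, 41 of them tested.

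Total RNA of 15 synovium samples was hybridized to 1 array each, in 5 groups of 3. The groups were healthy naive synovium and CIA synovium labelled with no, mild, moderate or severe swelling. CIA mice received 100 µg of type II collagen in FCA, an adjuvant, on day 0 and 100 µg intraperitoneally on day 21. The protocol text attached to the naive samples names the same injections; it was read as text of the whole series, since the labels call those joints healthy. Nothing in the labels gives the strain, sex or age of the mice, or says that the 3 samples of a group came from 3 animals, so the p-values cover only how far these samples lay from each other, and that spread may be technical.

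The proteasome is the protease that degrades proteins tagged with ubiquitin. Its 20S core is a barrel of outer alpha rings and inner beta rings, and the catalytic sites sit on the beta subunits encoded by Psmb5, Psmb6 and Psmb7. Under interferon gamma, newly built barrels take up Psmb8 in the place of Psmb5, Psmb9 in the place of Psmb6 and Psmb10 in the place of Psmb7, which gives the immunoproteasome, known for cutting peptides that suit MHC class I. The 19S regulatory particle, with a base of ATPases and a lid, binds and unfolds tagged proteins, and other activators (PA28, made of Psme1 and Psme2, the nuclear activator Psme3, and PA200, encoded by Psme4) can cap the barrel in its place.

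Values are MAS5 signals in linear intensity units, which the authors' scaling had brought to a trimmed mean of 150 on every array; a signal compares 1 gene between arrays, not genes with each other. Fold changes were taken on the log2(signal + 16) scale, which understates changes of dim genes. A gene was called at an adjusted p under 0.05 in limma, with Benjamini-Hochberg adjustment over all 14315 genes. The 6 synovial fibroblast markers, the lubricin gene Prg4 among them, were all above the filter. Signal of 11 skeletal muscle markers was present on every array, with a sum of 75640 to 109400 in severe swelling and 95300 to 111400 in naive synovium. The summed signal of 7 leukocyte markers was 6238 to 8854 in severe swelling and 565.1 to 728.9 in naive synovium, and all 7 rose. The 3′ to 5′ ratio of the actin control probes, a sign of RNA quality, was 1.21 to 1.27 in severe swelling and 0.89 to 1.03 in naive synovium. The same ratio of the Gapdh control probes overlapped, at 0.825 to 0.959 in severe swelling and 0.826 to 0.888 in naive synovium. Arrays also stood apart within groups: the median log2 signal of the 20S genes other than the inducible ones, relative to the naive mean, was 0.17 on severe replicate 2 and -0.24 and -0.26 on the other severe arrays, and it was 0.41 and 0.31 on replicates 1 and 3 without swelling and 0.08 on replicate 2.

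In severe swelling, 5 of the 45 proteasome genes rose and 11 fell relative to naive synovium, and 29 did not pass the test. Over all genes tested, 32.3% rose and 22.9% fell. The proteasome genes thus rose in 11.1% of cases and fell in 24.4%. Their median log2 fold change was -0.16, against 0.11 over all genes. It was -0.16 as well for the 41 tested genes outside the immunoproteasome subset, but that gap depended on the scaling. Under quantile normalization, these 41 genes had a median of 0.02, beside 0.0008 over all genes. With array medians aligned the 2 values were -0.38 and -0.07, and scaled on hybridization controls they were 0.35 and 0.53. The genes that rose were the 3 inducible catalytic subunits Psmb8, Psmb9 and Psmb10, together with Psmd9 and Psmd13. Of the 4 immunoproteasome genes with a value 3 rose and 1, Psme1, fell, and of the 41 others 2 rose and 10 fell. Without severe replicate 2, 19 of the 45 were lower, beside 22.7% of all genes in that fit. In a bulk sample, more RNA of a gene per cell and more cells that use it cannot be told apart, nor can fewer cells of a type and less RNA per cell. The part of the leukocyte markers and of the actin ratio in these changes was not tested.

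**Figure D1:**
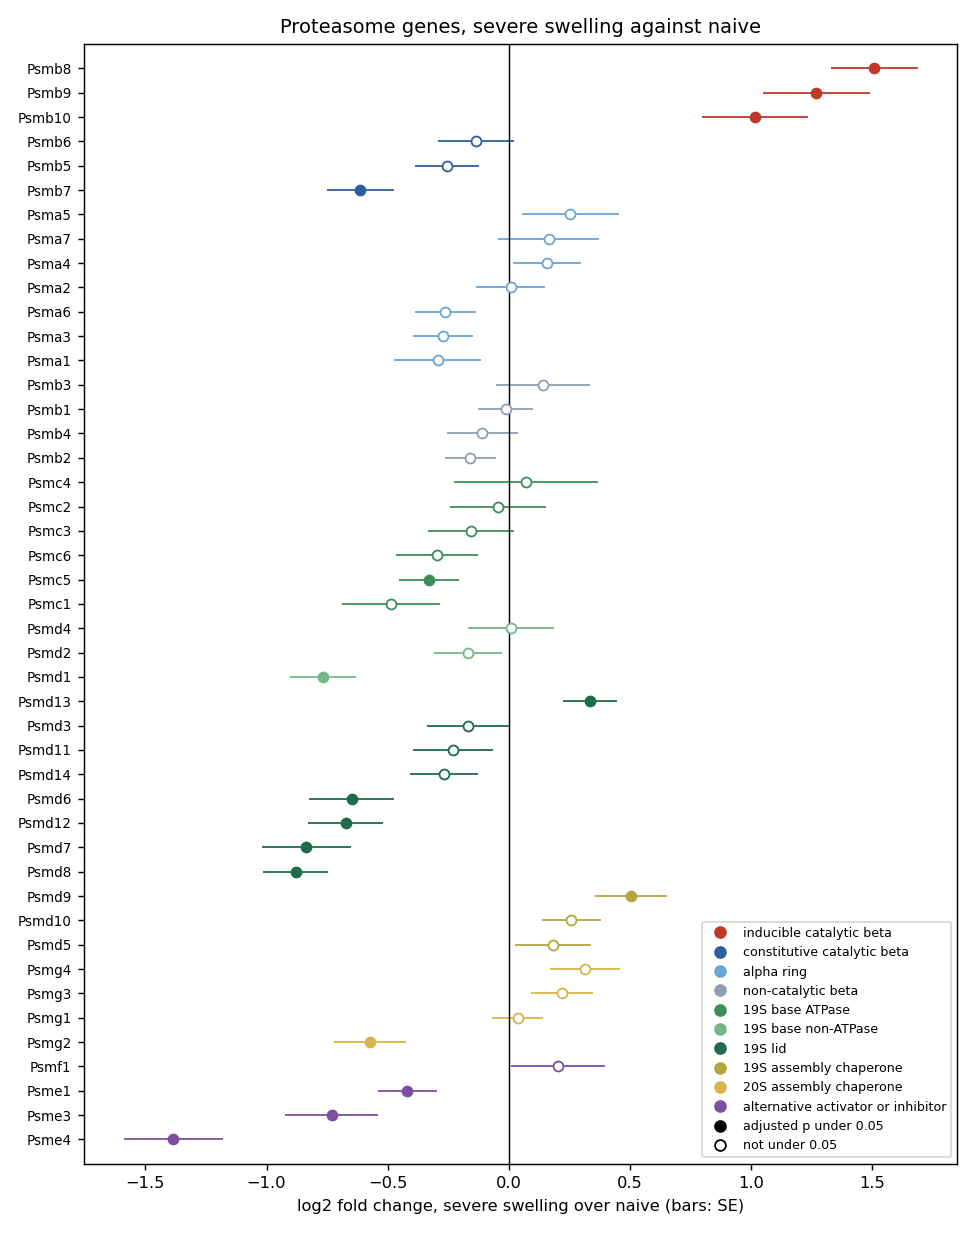
Log2 fold change of the 45 tested proteasome genes in severe swelling over naive synovium, from limma on log2(signal + 16), with bars of 1 SE and genes grouped by role. Filled points had an adjusted p under 0.05 and open points did not. Psmb8, Psmb9 and Psmb10 lie at 1.02 to 1.51, to the right of every other gene, and Psme4 lies farthest to the left at -1.38.

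Psmb8 (probe set 1422962_a_at) encodes the inducible subunit with chymotrypsin-like activity. Its signals were 86.3, 101 and 82 in naive synovium, 115.4, 159.1 and 85.4 without swelling, 188.1, 180.7 and 230.7 in mild, 324.3, 354.4 and 278.2 in moderate and 328.1, 252.7 and 277.1 in severe swelling. Every swollen sample lay above every sample without swelling and every naive sample. Psmb8 averaged 286 ± 38.5 in severe swelling and 89.77 ± 9.96 in naive synovium (SD, n = 3 each), a 3.19-fold ratio of means. Its log2 fold change was 1.51 ± 0.18 (SE; limma adjusted p = 4.37e-06), and it was 1.66 in moderate and 1.03 in mild swelling, each against naive and each past the test. These comparisons share the naive arrays.

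Psmb9 (1450696_at) encodes the inducible subunit that takes the place of Psmb6. Its signals were 84.6, 72.3 and 52.9 in naive synovium, 93.8, 135.6 and 61.9 without swelling, 129.6, 88.2 and 137 in mild, 173.5, 210.3 and 176.8 in moderate and 191.4, 167.4 and 209.8 in severe swelling. Moderate and severe samples lay above all others, whereas mild samples overlapped those without swelling. Psmb9 averaged 189.5 ± 21.3 in severe swelling and 69.93 ± 16 in naive synovium (SD, n = 3 each), and its log2 fold change was 1.27 ± 0.22 (SE; limma adjusted p = 0.000145). It rose by 1.25 in moderate and 0.64 in mild swelling on the same scale.

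Psmb10 (1448632_at) encodes the inducible subunit with trypsin-like activity. Its signals were 126.6, 112 and 156.1 in naive synovium, 110.7, 155.5 and 89.4 without swelling, 230.1, 189.9 and 240.2 in mild, 320.8, 256.8 and 219.8 in moderate and 300.3, 198.8 and 368.4 in severe swelling. All 9 swollen samples lay above all 6 others. Within severe swelling, replicate 2 had the lowest signal of Psmb8, Psmb9 and Psmb10. Psmb10 averaged 289.2 ± 85.3 in severe swelling and 131.6 ± 22.5 in naive synovium (SD, n = 3 each), with a log2 fold change of 1.02 ± 0.22 (SE; limma adjusted p = 0.000923). It was 0.93 in moderate and 0.68 in mild swelling, both past the test. In mild swelling, the call of Psmb9 was lost when 1 of 4 single arrays was left out (naive replicate 2 or 3, mild replicate 1 or 3; limma adjusted p up to 0.132), and its adjusted p was 0.0675 under quantile normalization. The call of Psmb10 was likewise lost (naive replicate 1 or 2, mild replicate 1 or 3; up to 0.0799). In severe swelling, all 3 calls held whichever severe or naive array was left out.

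**Figure D2:**
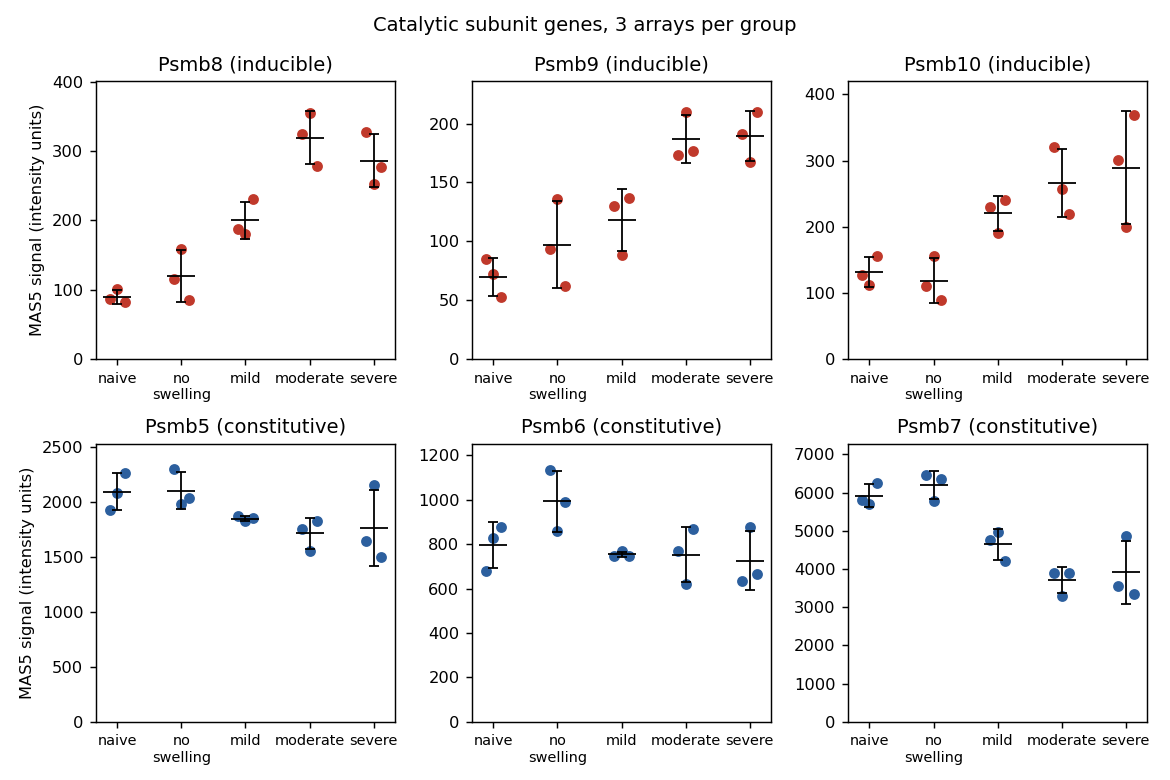
MAS5 signal in intensity units of the 3 inducible (upper row) and 3 constitutive (lower row) catalytic subunit genes on each array, by group from naive to severe swelling. Points are arrays, the long line is the mean of 3 and the bars are 1 SD. Inducible genes are higher in moderate and severe swelling than in naive synovium on every array, and Psmb7 is lower on every such array.

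The promoters of genes from this set were read from RefSeq (build GRCm38.p6) in windows of 250 bases before to 50 after the start of transcription, and 39 of the 47 genes had one. The window of Psmb9 is shown because the gene lies head to head with Tap1, a subunit of the peptide transporter that feeds MHC class I, and the 2 genes share the 225 bases between their start sites. The stretch is given on the strand of Tap1, with capitals on a CCAAT box, here near the start of Psmb9. For Psmb8, which lies on the same chromosome, the 150 bases before the start are shown, with capitals on a gamma-activated site (TTCNNNGAA).
Psmb9-Tap1, chr17:34187331-34187555, plus strand: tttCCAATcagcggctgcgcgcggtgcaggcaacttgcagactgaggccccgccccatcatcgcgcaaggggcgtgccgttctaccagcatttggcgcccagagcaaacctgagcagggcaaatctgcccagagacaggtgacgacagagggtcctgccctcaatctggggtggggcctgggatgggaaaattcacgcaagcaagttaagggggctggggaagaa
Psmb8, chr17:34198045-34198194, plus strand: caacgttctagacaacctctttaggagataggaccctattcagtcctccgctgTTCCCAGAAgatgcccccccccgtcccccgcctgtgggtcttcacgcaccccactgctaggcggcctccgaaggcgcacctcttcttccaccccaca

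For the constitutive partners, the stretch around the core of an antioxidant response element (TGACNNNGC), which NRF2 and NRF1 are known to bind, is shown for Psmb5 and Psmb6 in capitals. Psmb7 had no promoter window, so it was not searched. Psme1 is shown with capitals on the core of an interferon-stimulated response element, read here on the opposite strand. That core lies 9 to 18 bases after the start of transcription.
Psmb5, chr14:54617996-54618095, minus strand: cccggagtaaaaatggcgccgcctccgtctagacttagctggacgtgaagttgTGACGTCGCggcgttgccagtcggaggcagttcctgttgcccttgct
Psmb6, chr11:70525327-70525356, plus strand: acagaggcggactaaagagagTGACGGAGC
Psme1, chr14:55578492-55578521, plus strand: tcgagctgtgcTTTCGCTTTCccttcccgc

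Both strands of each window were searched, and overlapping matches of different motifs were counted for each. The gamma-activated site was found in 3 of the 39 genes (Psmb8, Psmd2 and Psmg1) and in 8.3% of all 32851 promoter windows. The interferon-stimulated core was found in 5 genes (Psmb3, Psmd4, Psmd9, Psme1 and Psmg4), of which Psmd9 rose and Psme1 fell in severe swelling, and in 3.44% of all windows. The antioxidant core was found in 6 genes (Psmb5, Psmb6, Psmc6, Psmd9, Psmd12 and Psme4) and in 12.4% of all windows, the NF-kappaB consensus in 6 genes and 8.46% of all windows, and the box CCAAT in 14 genes and 37.4% of all windows. A gene can have several windows, so its share of genes is not on the scale of the share of windows. A match describes the letters only.

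Within each array, the inducible genes moved relative to the constitutive genes whose place their products take. The log2 ratio of Psmb8 to Psmb5, set to a naive mean of 0, averaged 0.32 ± 0.43 without swelling, 1.2 ± 0.17 in mild, 1.95 ± 0.28 in moderate and 1.76 ± 0.4 in severe swelling (SD, n = 3 each). The ratio of Psmb9 to Psmb6 averaged 0.04 ± 0.61, 0.71 ± 0.32, 1.33 ± 0.37 and 1.4 ± 0.39 in the same order of groups, and that of Psmb10 to Psmb7 averaged -0.22 ± 0.43, 1.03 ± 0.28, 1.61 ± 0.28 and 1.63 ± 0.71. The 9 swollen arrays lay above the 6 others on all arrays for Psmb8 over Psmb5 and for Psmb10 over Psmb7. For Psmb9 over Psmb6, mild replicate 2, at 0.34, lay below naive replicate 1, at 0.46, and below replicate 2 without swelling, at 0.72.

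The mean ratio in the 9 swollen arrays exceeded that in the 6 naive or unswollen arrays by 1.48 for Psmb8 over Psmb5, 1.13 for Psmb9 over Psmb6 and 1.53 for Psmb10 over Psmb7 on the log2 scale, which is 2.78-fold, 2.18-fold and 2.9-fold. In an exact two-sided permutation test over all arrangements of 9 and 6 arrays, p was 0.0002 for the Psmb8 and Psmb10 pairs, the smallest the design can give, and 0.000599 for the Psmb9 pair. Adjusted over the 3 pairs they were 0.0003, 0.0003 and 0.000599. A ratio within an array does not move with the scaling of that array apart from the offset. It shows unequal change of the pair, and not which subunit is the more abundant.

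**Figure D3:**
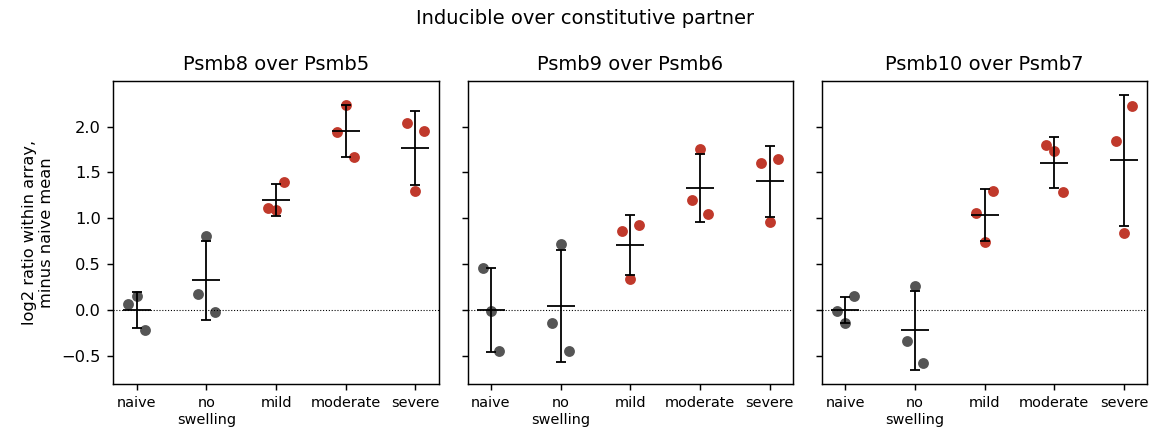
Log2 ratio of each inducible to its constitutive partner gene within an array, on log2(signal + 16) and minus the naive mean, by group from naive to severe swelling. Points are arrays (red for swollen joints, grey for the others), the long line is the group mean and the bars are 1 SD. Group means in moderate and severe swelling are 1.33 to 1.95, and those without swelling are -0.22 to 0.32.

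The constitutive catalytic genes gave unequal values. Psmb7 (1416240_at), the constitutive subunit with trypsin-like activity, had 3551.1, 4851.6 and 3330.8 in severe swelling, against 5801.5, 5690.4 and 6250 in naive synovium. No severe sample reached a naive one, and replicate 2 was the nearest. Psmb7 fell, with a log2 fold change of -0.61 ± 0.14 (SE; limma adjusted p = 0.00137), and also in moderate swelling, at -0.68. Psmb5, the constitutive subunit with chymotrypsin-like activity, averaged 1767 ± 346 in severe swelling and 2093 ± 170 in naive synovium (SD, n = 3 each), and Psmb6 averaged 725.5 ± 132 and 794.9 ± 104. Their groups overlapped, and their log2 fold changes of -0.26 and -0.14 had limma adjusted p = 0.112 and 0.488.

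The rest of the 20S barrel showed no call in severe swelling by the brightest probe sets. Over all genes, 32.3% rose and 22.9% fell. The brightest probe set of Psma6 gave -0.26 and did not pass. Its second brightest, 1416506_at, gave -0.54 and was called lower in a fit of all probe sets (limma adjusted p = 0.0346). Of the 7 alpha ring genes, Psma1 to Psma7, which form the gate of the barrel, 0 rose and 0 fell, with log2 fold changes from -0.29 (Psma1) to 0.25 (Psma5). Of the 4 beta ring genes without a catalytic site, Psmb1 to Psmb4, 0 rose and 0 fell, with values from -0.16 (Psmb2) to 0.14 (Psmb3). Single calls came in other groups: Psma3 fell by 0.34 in moderate swelling, and Psma5 rose by 0.55 in mild swelling. Psma5 had 1903.9, 1642 and 2147.1 in mild swelling, against 1243.4, 1423.9 and 1192 in naive synovium, so these groups did not overlap, but the call was lost without naive replicate 1 or 3 or mild replicate 1 or 3 (limma adjusted p up to 0.135). The second brightest probe set of Psma5 gave 0.18 and the mean of its probe sets 0.26, neither past the test, and the call was also lost with array medians aligned, at 0.44, with the replicate block, where the adjusted p was 0.0577, and without the intensity trend.

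The activators outside the 19S particle were lower. Psme4 (1426823_s_at) encodes PA200, an activator known from work on acetylated histones and sperm development. It had 957.4, 1753.5 and 1079.5 in severe swelling, against 3270.9, 3120.8 and 3243.5 in naive synovium. Its signals were 3150.1, 3184.7 and 4118.7 without swelling, 1779.8, 2284.4 and 1889.7 in mild and 1504.4, 1007.1 and 1472.7 in moderate swelling. All 9 swollen samples lay below all 6 others. The log2 fold change was -1.38 ± 0.2 in severe swelling (SE; limma adjusted p = 3.2e-05), -1.29 in moderate and -0.7 in mild swelling, where it missed the test without mild replicate 1 (limma adjusted p = 0.0529). The other bright probe sets of Psme4 gave -1.31 and -1.81 in severe swelling, each past the test in a fit of all probe sets. Psme4 was lower and called in severe swelling under each of the scalings tried, at -1.6 to -0.88. Scaled on the hybridization controls, it lost its call in moderate swelling, at -0.79 (limma adjusted p = 0.0504). Under the same scaling the call in mild swelling was lost as well, at -0.06 (limma adjusted p = 0.908).

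Psme1 (1417056_at), the PA28 alpha subunit and the fourth immunoproteasome gene with a value, did not move with the catalytic ones. It had 628.4, 671.4 and 839.5 in severe swelling, against 900, 921 and 1036.9 in naive synovium, with no overlap. It fell by 0.42 on the log2 scale (SE 0.12; limma adjusted p = 0.00895) in severe swelling and by 0.33 in moderate swelling, where the call was lost without naive replicate 2 or 3 or moderate replicate 1 or 3 (limma adjusted p up to 0.134). Scaled on the hybridization controls, the difference was 0.09 in severe swelling, with limma adjusted p = 0.865. Psme3, the PA28 gamma activator of the nucleus, had 136.6, 163.9 and 129.9 in severe swelling, against 230, 289.4 and 227.5 in naive synovium, and fell by 0.73 (SE 0.19; limma adjusted p = 0.0042). Its other probe sets gave -0.71 and -0.95. Psmf1, an inhibitor of the 20S core, averaged 148.7 ± 30.3 in severe swelling and 127.1 ± 25.9 in naive synovium (SD, n = 3 each), with overlapping groups and limma adjusted p = 0.393.

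Of the 8 lid genes of the 19S particle, 4 fell and 1 rose in severe swelling, beside 22.9% and 32.3% of all genes. Psmd8, a lid subunit, had 1262.4, 1896.7 and 1421 in severe swelling, against 2694, 2739.5 and 2914.3 in naive synovium. Each severe sample was below each naive sample, and its log2 fold change was -0.88 ± 0.13 (SE; limma adjusted p = 4.46e-05). Psmd7, the partner of the lid's deubiquitinase, had 571.3, 1008.9 and 553.6 in severe swelling, against 1223.4, 1339 and 1144.4 in naive synovium. Severe replicate 2 lay closest to the naive samples, and the log2 fold change was -0.84 ± 0.18 (SE; limma adjusted p = 0.00109). Psmd12 fell by 0.67 and Psmd6 by 0.65, both without overlap of the groups, and Psmd6 lost its call under quantile normalization, at -0.38, and by its mean or second brightest probe set. Psmd14, the deubiquitinase itself, had a log2 fold change of -0.27 with limma adjusted p = 0.122.

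Psmd13 was the lid gene that rose, at 713.6, 694.7 and 622.3 in severe swelling, against 516.2, 542.1 and 537.8 in naive synovium. The groups did not overlap, and the log2 fold change was 0.34 ± 0.11 (SE; limma adjusted p = 0.0177). The call of Psmd13 was lost without naive replicate 1 or severe replicate 1 (limma adjusted p up to 0.0633) and with array medians aligned, at 0.12. Psmd11, another lid gene, has probe sets called in opposite directions: the brightest gave -0.23 and did not pass, 2 others gave -0.8 and -0.76 and were called lower, and another gave 0.34 and was called higher. No direction is given for Psmd11.

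In the base of the 19S particle, 1 of 6 ATPase genes and 1 of 3 other genes fell in severe swelling by the brightest probe sets. Over all genes, 22.9% fell. The brightest probe set of Psmc6, an ATPase, gave -0.295 and did not pass. Its dimmer probe sets gave -0.66 and -0.85 and were called lower in a fit of all probe sets (limma adjusted p = 0.0148 and 0.0172). Psmd1, a scaffold of the base, had 1033, 1480.6 and 952.7 in severe swelling, against 1982.1, 1843.3 and 1993.7 in naive synovium. Its groups did not overlap, and the log2 fold change was -0.77 ± 0.14 (SE; limma adjusted p = 0.000184), with -0.89 in moderate and -0.38 in mild swelling. In mild swelling its call was lost whichever mild or naive array was left out (limma adjusted p up to 0.101). Psmc5, an ATPase, fell by 0.33 in severe and by 0.6 in moderate swelling, and its call in severe swelling was lost when replicate 1 or 3 of the naive or the severe group was left out (limma adjusted p up to 0.123) and under quantile normalization, at -0.12. Psmc4, another ATPase, had 1369.7, 1307.6 and 1545.6 in mild swelling, against 628.5, 569.4 and 608.9 in naive synovium, and rose by 1.2 (SE 0.3; limma adjusted p = 0.0044) in mild swelling. Severe replicate 2, at 1089.9, stood apart from 535.9 and 432.2 on the other severe arrays. A further probe set of Psmc4 of similar signal gave 0.05 in mild swelling, with limma adjusted p = 0.848, so the rise rests on 1 of 2 probe sets.

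Among the assembly chaperones, Psmg2, which helps to build the alpha ring, had 340.6, 444.3 and 336.8 in severe swelling, against 547.1, 534.6 and 598.5 in naive synovium. Each severe value was below each naive value, and Psmg2 fell by 0.57 (SE 0.15; limma adjusted p = 0.00401). The mean of its probe sets gave -0.1 and its second brightest -0.24, neither past the test. Its partner Psmg1 had a log2 fold change of 0.04 with limma adjusted p = 0.782. Psmg3 and Psmg4, the other pair of 20S chaperones, had 0.22 and 0.32 and did not pass. Psmd9, a chaperone of the 19S base, had 203.8, 170.8 and 178.7 in severe swelling, against 134.1, 137.4 and 105.4 in naive synovium. It rose by 0.51 (SE 0.15; limma adjusted p = 0.00871), but a second, dimmer probe set fell by 0.65 (adjusted p = 0.015), so its direction depends on the probe set. The call was also lost without naive replicate 3 (limma adjusted p = 0.0515). Psmd10, another chaperone of the base, had 0.26 and did not pass.

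**Figure D4:**
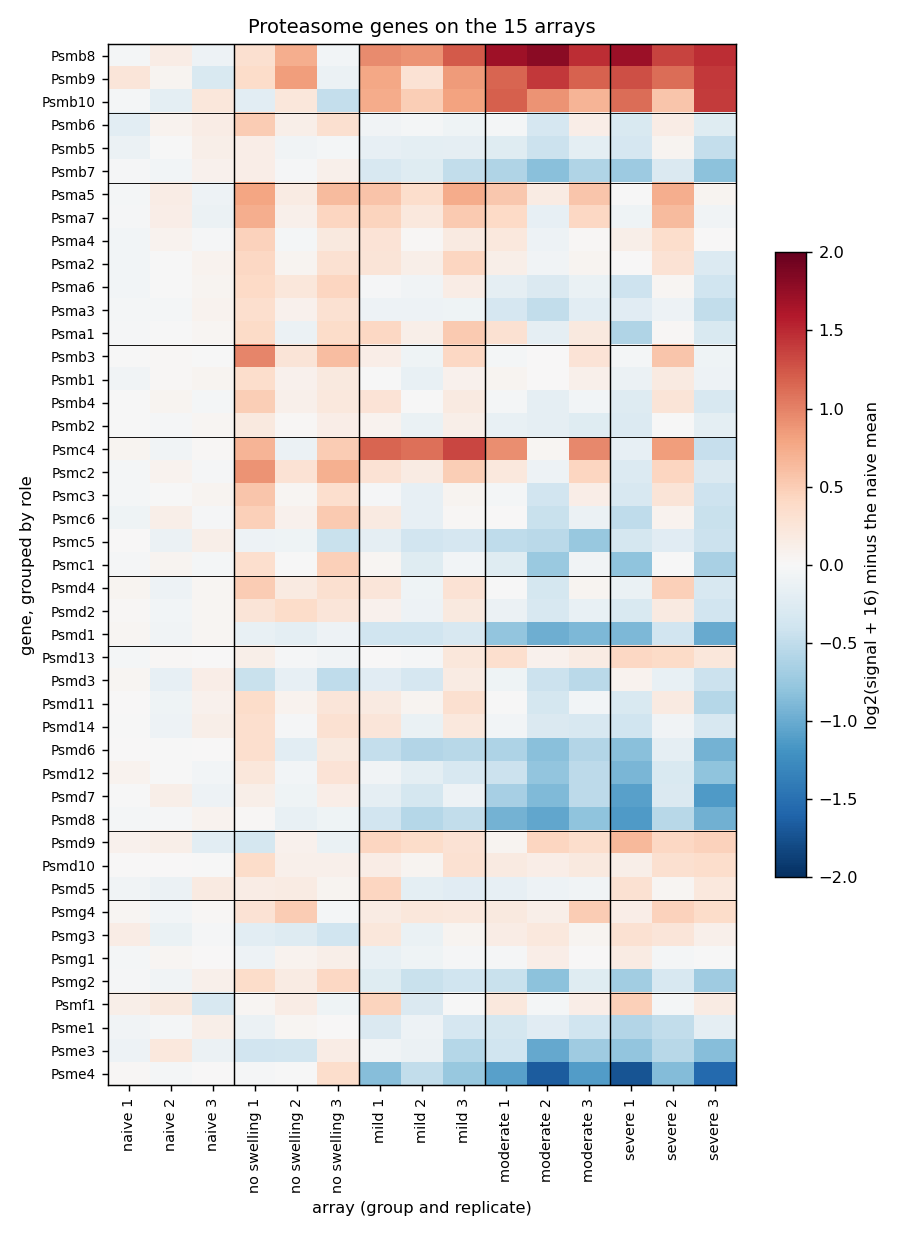
Log2(signal + 16) minus the naive mean for each of the 45 tested proteasome genes (rows, grouped by role) on each of the 15 arrays (columns, from naive to severe swelling). Red is above and blue below the naive mean. The 3 inducible genes in the top rows are red on all swollen arrays, Psme4 in the bottom row is blue on them, and severe replicate 2 and replicate 2 without swelling differ in shade from the other arrays of their groups.

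In moderate swelling, 3 of the 45 genes rose and 12 fell relative to naive synovium, beside 30.9% and 23.8% of all genes. The genes that rose were Psmb8, Psmb9 and Psmb10. Without moderate replicate 2, 5 rose, beside 28.5% of all genes. In mild swelling, 5 rose (Psmb8, Psmb9, Psmb10, Psma5 and Psmc4) and 4 fell (Psmd1, Psmd6, Psmd8 and Psme4), beside 23.1% and 17.1% of all genes. Leaving out 1 naive replicate gave 3 higher and 2 lower genes there, beside 19.5% to 21% and 13.5% to 14.8% of all genes. Leaving out mild replicate 1 or 3 gave 2 and 2, beside 18.1% to 19% and 12.4% to 13.8%. Psmd6 lost its call in mild swelling without any 1 naive replicate or mild replicate 3 (limma adjusted p up to 0.0589). The mean of its probe sets gave -0.08 there. Under quantile normalization the calls of Psmd6 and Psmd8 in mild swelling were both lost (limma adjusted p = 0.0824 and 0.0607). Without swelling, 0 genes rose and 0 fell in limma against naive synovium, beside 1.52% and 1.76% of all genes. In this group, 8 of the 45 genes had an unadjusted p under 0.05, as did 2703 of all 14315 genes tested. Without replicate 2 of that group, 2 rose, beside 1.42% of all genes. The differences were positive for 36 of the 45 genes there, with a median log2 fold change of 0.21, against -0.01 over all genes. Psmc2, an ATPase of the 19S base, had 4132.7, 2707.8 and 3611.5 without swelling, against 2154.6, 2311.3 and 2171.1 in naive synovium. These did not overlap, but the limma adjusted p of its log2 difference of 0.63 was 0.096. Psmb3 and Psma6, with the next lowest p-values, had differences of 0.61 and 0.35.

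Between adjacent grades, mild against no swelling gave 5 higher and 7 lower proteasome genes of 45, beside 23% and 15.6% of all genes. Psmb8 rose by 0.7 and Psmb10 by 0.83 at this step, while Psmb9 had 0.28 and did not pass. Leaving out single arrays of these 2 groups gave 2 to 5 higher and 3 to 11 lower genes, with 11 lower, beside 14.2% of all genes, without replicate 2 of the group without swelling. The 7 lower genes were Psme4, which fell by 0.8, Psmg2 by 0.68, Psmd6 by 0.65, Psmb7 by 0.42, Psmd8 by 0.41, Psma3 by 0.34 and Psma6 by 0.33. Under quantile normalization Psmg2 was the only proteasome gene called lower at this step. Psme4 also lost its call under the hybridization control scaling, at -0.02, and Psmd6 with the mean of its probe sets, at -0.4, and with the second brightest, at -0.15. Moderate against mild swelling gave 1 higher gene, Psmb8 at 0.63 (SE 0.18; limma adjusted p = 0.0459), and 1 lower gene, Psmd1 at -0.51 (SE 0.14; limma adjusted p = 0.0368), beside 3.3% and 3.43% of all genes. Both calls were lost when mild replicate 1 or 2 or any 1 moderate replicate was left out. Severe against moderate swelling gave 0 calls among the proteasome genes and 0% among all genes in limma, with 2 of the 45 genes and 889 of all genes at an unadjusted p under 0.05. Those 2, Psma1 at -0.4 and Psmc5 at 0.27, had limma adjusted p = 0.777 and 0.781.

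A test of any difference among the 5 groups called 25 of the 45 genes, or 55.6%, beside 60.7% of all genes tested. Among the 41 genes outside the immunoproteasome subset it called 21, or 51.2%. The counts by direction depended on the scaling. Scaled on 9 hybridization control probe sets, 5 were higher and 1, Psme4, was lower in severe swelling, beside 37.1% and 5.52% of all genes, with the median of all genes shifted by 0.42. With array medians aligned 3 were higher and 17 lower, beside 24.4% and 29% of all genes. The 3 inducible catalytic genes were called higher in severe and moderate swelling under every scaling.

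Genes that act with the immunoproteasome were read from lists of partners. Of 12 genes that load peptides on MHC class I, 11 rose in severe swelling and 0 fell, with a median log2 fold change of 1.04, beside 32.3% of all genes. Tap1, whose start lies beside that of Psmb9, had 217.6, 145.2 and 182.6 in severe swelling, against 31.1, 30.5 and 48 in naive synovium. Severe replicate 2 was the lowest of its group, as for Psmb8, Psmb9 and Psmb10, and the severe and naive samples did not overlap. The log2 fold change of Tap1 was 1.91 ± 0.2 (SE; limma adjusted p = 1.57e-06), that of Tapbp, the bridge between transporter and MHC class I, 1.11, and that of Nlrc5, an activator of MHC class I transcription, 1.29. Erap1, which trims peptides in the endoplasmic reticulum, had 0.28 with limma adjusted p = 0.0686. None of the 12 passed without swelling, where the median was 0.01.

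Of 12 tested genes of interferon gamma signalling and its targets, 8 rose and 2 fell in severe swelling. Over all genes, 32.3% rose and 22.9% fell. Irf1, a transcription factor known to act on Psmb9 and Tap1, had 770, 598.2 and 691.6 in severe swelling, against 442.4, 447.4 and 364.3 in naive synovium. Every severe value lay above every naive value, and the log2 fold change was 0.69 ± 0.13 (SE; limma adjusted p = 0.000311). Irf8 rose by 1.18, and the receptor chain Ifngr1 rose by 1.47 while the other chain, Ifngr2, fell by 1.1 and the kinase Jak1 by 0.56. Ifng itself lay below the signal filter.

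Other partners gave mixed directions in severe swelling, where 32.3% of all genes rose and 22.9% fell. Of the 3 genes measured that govern the transcription of constitutive proteasome genes, Nfe2l1, the factor NRF1 that restores proteasome genes when the proteasome is blocked, had a log2 fold change of -0.29 with limma adjusted p = 0.162. Ngly1, the enzyme known to activate NRF1, fell by 0.96, and Nfe2l2, the stress factor NRF2, rose by 0.67. Of 11 shuttle, assembly and associated genes outside the Psm symbols, 0 rose and 4 fell: Ubqln4 (-1.12), Ecpas (-1.05), Rad23b (-0.66) and Ubqln1 (-0.55), of which Ubqln4, Rad23b and Ubqln1 carry tagged proteins to the proteasome and Ecpas is a scaffold on it. Pomp, the chaperone that matures the 20S core, had 0.28 with limma adjusted p = 0.216. Of 14 ubiquitin-conjugating and p97 complex genes, 8 fell, among them the conjugating enzymes Ube2d1 (-1.43), Cdc34 (-0.86) and Ube2g2 (-0.75), and 2 rose, Ube2n and Faf2.

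Markers of cell types differed in direction between the lists. In severe swelling, 32.3% of all genes rose and 22.9% fell. All 6 macrophage markers and all 5 neutrophil markers measured rose in severe swelling, and their summed signals were 5500 to 7648 and 8704 to 12040 in severe swelling, against 1663 to 1901 and 80.8 to 96.7 in naive synovium. All 6 synovial fibroblast markers rose as well, with a sum of 19350 to 27930 in severe swelling and 5145 to 5628 in naive synovium. Of 4 T cell markers tested, 2 rose, with a sum over 5 measured of 132.7 to 227 in severe swelling and 83 to 154.2 in naive synovium. Beside the genes that fell, 3 of 11 muscle markers fell in severe swelling (Myh2, Myh7 and Mb), with the sums given above. In moderate swelling against naive 9 of 11 muscle markers fell, with a median log2 fold change of -0.57, beside 23.8% of all genes. In mild against no swelling 9 of 11 fell, beside 15.6% of all genes. Of 4 adipocyte markers measured, 3 fell in severe swelling, with a median of -1.61 and a sum of 3497 to 4978 in severe swelling and 4800 to 7301 in naive synovium. Of 4 keratinocyte markers tested, 2 fell in severe swelling, with a sum over 5 measured of 203.5 to 275.9 in severe swelling and 309.7 to 366.1 in naive synovium. Of the tested markers of other lists, 1 of 3 of B cells, 1 of 3 of dendritic cells and 2 of 5 of endothelium rose in severe swelling. Of 2 erythroid markers tested, 1 fell. No marker of these lists was at 0 on all arrays, and their part in the changes of the proteasome genes was not tested.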

How the data were processed

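Synovium RNA carried a biotin label and went onto 1 Affymetrix array a sample, per the labels' protocols. The authors deposited 1 linear intensity value for each of 45101 probe sets and 15 arrays, made with MAS5 according to the submitters' processing notes, with no version given in those. Each array already had a trimmed mean of 150, so the values were not scaled again. Genes were named through the platform annotation in GEO, from probe sets with 1 symbol only (34958; 932 had several and 9211 none).

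Signals were taken as log2(signal + 16), with the brightest probe set of each gene. Genes had to exceed the 40th percentile of an array on 3 or more of the arrays, and they were tested with limma 3.58.1 in R 4.3.3, as group means over all 15 arrays with an intensity trend, at a two-sided Benjamini-Hochberg adjusted p under 0.05, and limma's SE is given. Exact permutation of 3 against 3 arrays has a smallest p of 0.1, and precision is limited by how few arrays there are. The ratio within a pair of genes was tested by exact permutation of arrays. Replicates of a group correlated at 0.948 to 0.982. Alternatives were other offsets and filters, quantile normalization, aligned array medians, scaling on hybridization controls, the mean of probe sets or the second brightest, no intensity trend, array weights, the replicate block, only the groups compared, and leaving out single arrays.

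The proteasome genes, partner lists and marker lists were chosen with earlier results of these data known. Named among the members were the immunoproteasome and catalytic genes, the activators and the inhibitor, those below the filter or with opposed probe sets, and by rule the 6 highest and 6 lowest others in severe swelling and the 3 lowest p-values of each other comparison; from each partner list, up to 3 genes with the lowest p and a short fixed panel. Other genes named to complete a count, to give a role or to set probe sets side by side were chosen after their values were seen. Psma8 and Psmb11 were below the filter. Promoter sequences are from RefSeq, and 8 of the 47 genes had none in that table.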

Additional observations from a re-analysis of the deposited data

How the results depend on the processing

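Over all settings tried, the 3 pair ratios kept their direction and stayed past the test, at 1.4 to 1.61 for Psmb8 over Psmb5, 1.03 to 1.27 for Psmb9 over Psmb6 and 1.43 to 1.62 for Psmb10 over Psmb7 when single arrays were left out. Counts of proteasome genes called are given as higher and lower. Scaling on hybridization controls gave 1 lower gene in severe swelling against naive, beside 5.52% of all genes. It gave 5 higher and 0 lower in moderate swelling, beside 34.5% and 5.34%, and 11 and 0 in mild, beside 35% and 0.929%. In mild against no swelling it gave 9 and 0, beside 45.2% and 0.251% of all genes. In moderate against mild it gave 0 and 0, beside 0.713% and 1.06%. With any difference it gave 9, beside 52.2%. Under it Psme1 had 0.0853 and Psmc5 0.178 in severe swelling, Psme1 0.162 in moderate, Psmd8 0.161, Psmd1 0.261 and Psmd6 0.099 in mild, and Psmb7 0.364, Psmd8 0.367, Psmd6 0.13, Psmg2 0.0866 and Psma6 0.446 in mild against no swelling, all of opposite sign to the values without this scaling in the same comparison. This scaling raised the median of all genes by 0.423 in severe, 0.417 in moderate and 0.534 in mild swelling against naive. The median rose by 0.624 in mild against no swelling. Aligned array medians gave 3 and 17 in severe swelling, beside 24.4% and 29% of all genes. They gave 2 and 12 in mild against no swelling, beside 16.6% and 21.1%, and 0 lower in moderate against mild, beside 2.72%. Quantile normalization gave 5 higher in moderate and 1 lower in mild swelling, beside 28.3% and 18.4% of all genes. It gave 3 and 1 in mild against no swelling, beside 18.6% and 16%, and 16 with any difference, beside 59.4%. Psma6 had 0.00898 under it in mild against no swelling. Array quality weights gave 17 lower in severe, 5 higher in moderate and 4 higher without swelling, beside 24.8%, 33.7% and 3.86% of all genes. They gave 17 and 8 in mild swelling, beside 35.9% and 28.9%, and 14 lower in mild against no swelling, beside 22.8%. In moderate against mild they gave 2 and 18, beside 16.2% and 15.7% of all genes. With any difference they gave 41, beside 78.8% of all genes. The fit of only the groups compared gave 5 higher in moderate swelling and 1 higher without swelling, beside 32.1% and 1.97% of all genes. It gave 0 and 0 in moderate against mild, beside 0.021% and 0.0629%. The mean of probe sets gave 3 higher in mild swelling, beside 21.3% of all genes. It gave 2 and 4 in mild against no swelling, beside 22% and 15.1%, and 0 higher in moderate against mild, beside 2.73%. The second brightest probe set, with 40 genes tested, gave 3 higher in severe and in mild swelling, beside 28.2% and 18.8% of all genes. It gave 1 and 4 in mild against no swelling, beside 19.2% and 13.6%. In moderate against mild it gave 0 and 2, beside 2.25% and 2.59%. Under it Psmd7 had 0.00701 in severe and 0.0303 in moderate swelling, Psmd6 0.237 in moderate and 0.389 in mild, and Psmd9 -0.654 in severe, -0.68 in moderate, -0.586 in mild and -0.242 in mild against no swelling. In moderate against mild swelling, an offset of 1 and no filter gave 0 higher, beside 2.52% and 1.91% of all genes. A filter at the 60th percentile gave 2 lower there, beside 5.2%, and no intensity trend gave 0 and 0, beside 2.34% and 2.5%.

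When single arrays of the groups compared were left out, the counts against naive were 4 to 5 higher and 10 to 19 lower in severe swelling. All genes gave 28.4% to 31.3% and 20.6% to 22.7% there. In moderate swelling they were 3 to 5 and 10 to 11, beside 28.2% to 29.1% and 20.5% to 22.1% of all genes. In mild swelling they were 2 to 5 and 2 to 4, beside 18.1% to 24.8% and 12.4% to 18.5%. Without swelling they were 0 to 2 and 0 to 0, beside 0.429% to 1.42% and 0.429% to 2.41%. Mild against no swelling gave 2 to 5 and 3 to 11, beside 17.6% to 24.5% and 11.2% to 17% of all genes. Moderate against mild gave 0 to 1 and 0 to 1, beside 0.547% to 7.53% and 0.835% to 6.71%. Severe against moderate gave 0 to 0 and 0 to 0, beside 0% and 0% to 0.014%. With any difference, leaving out single arrays gave 18 to 34, beside 56.6% to 62.3%. Samples were not treated as paired by replicate number in the main fit. The deviations of same-numbered samples from their group means correlated at -0.51 to 0.33 (median -0.043 over 30 pairs). With means of 3 arrays, these values cannot tell whether same-numbered samples were handled together. The replicate block gave 0 higher and 0 lower in moderate against mild swelling, beside 2.15% and 2.75% of all genes. It left the other counts within 1.5 times. The causes of these shifts were not tested, apart from those that follow from fewer samples or genes. With 3 arrays a group, small differences in subunit signal are not detectable.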
